A study of Mus musculus with 9 samples.

Results

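A set of 10 interferon-inducible genes was followed in mouse pancreatic stellate cells, the fibroblast-like cells of the pancreas that produce matrix in injury and cancer. They were Ifi44, Rsad2, Ifi27l2a, Bst2, Mx1, Mx2, Rtp4, Cmpk2, Apol9a and Apol9b. The members were chosen by symbol, as antiviral effectors, and all 10 were found among the 17156 gene symbols of the count table and passed the filter on low counts, which 13613 genes passed. The cells were wild-type lines of strain C57BL/6J, and 9 libraries of ribosome-depleted total RNA were made from 3 groups of 3 after 4 days of culture. MG-CM was the control medium, DMEM with 5% FBS, which the labels also describe as Matrigel-conditioned or control medium. CM was conditioned medium from pancreatic tumour organoids, whose serum share is not given in the sources used here, and CM-JAKi was CM with 500 nM AZD1480, a small-molecule inhibitor of JAK kinases. Replicate 1 of each group was line PSC4, and replicates 2 and 3 were PSC5-I and PSC5-II, both labelled as cell line PSC5. Each replicate number had its own source of conditioned medium. Line and source thus changed together between replicate 1 and the others. Between replicates 2 and 3 the source and the culture changed within line PSC5. The age, sex and number of founder animals of the lines are not given in the sources used here.

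Type I interferons are secreted proteins that bind the receptor IFNAR1 and IFNAR2, which signals through the kinases JAK1 and TYK2. Transcription factors activated this way bind a repeated element in promoters and switch on genes whose products block the entry, copying or release of viruses. Fibroblasts are among the cells that keep a low level of this programme without infection and raise it when they meet interferon.

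The libraries held 25625806 to 32466018 counts. The 10 markers of stellate cells and fibroblasts were all in the table and summed to 4480 to 5070 CPM (counts scaled to library size, with TMM factors) in MG-CM, 3900 to 7200 in CM and 5030 to 6140 in CM-JAKi. Within this sum single markers moved apart. Dcn, decorin, averaged 375 ± 127, 2720 ± 1740 and 398 ± 160 CPM in MG-CM, CM and CM-JAKi, and by edgeR it rose in CM (2.86 ± 0.53, adjusted p = 0.0175) and fell with the inhibitor (-2.77 ± 0.53, 0.0102), as the 10 genes did. The rise of Dcn was lost without MG-CM replicate 2 (0.0825) or 3 (0.0550). The collagen genes Col1a1 (0.74 ± 0.16, adjusted p = 0.0147) and Col1a2 (1.30 ± 0.20, 0.00473) rose with the inhibitor. Of the 10 markers 2 thus rose and 1 fell from CM to CM-JAKi, where 10.1% of all genes rose and 8.93% fell. Vim, vimentin, fell in CM (-1.03 ± 0.26, 0.0415), a call lost without CM replicate 1 or 2, MG-CM replicate 2 or 3, or CM-JAKi replicate 2 (0.0699 to 0.146). Acta2, smooth muscle actin, averaged 513 ± 217, 71.7 ± 54.5 and 405 ± 164 CPM, and its change of -2.84 ± 0.79 in CM missed the threshold (adjusted p = 0.0556, but 0.00965 with replicate numbers as a block). Whether these marker changes bear on the values of the 10 genes was not tested. Of 8 leukocyte markers in the table, Ptprc, Itgam, Lyz2, Cd3e and Cd79a were under 1 CPM in every library. The leukocyte list summed to 22.9 to 35.1 CPM in MG-CM, 34.1 to 118 in CM and 15.9 to 32.8 in CM-JAKi, most of it Cd14. Cd14 was not called in CM (edgeR adjusted p = 0.132). It fell with the inhibitor (-1.74 ± 0.50, 0.0410), the 1 call there among 4 tested leukocyte markers. Among 8 epithelial markers Epcam, Cdh1, Krt8 and Cldn4 were under 1 CPM throughout, and the list summed to 18.3 to 23.0, 17.0 to 23.3 and 12.7 to 31.3 CPM. Most of this was Krt19, which averaged 8.19, 3.08 and 14.5 CPM, and Muc1, at 10.1, 13.4 and 3.76 CPM. Muc1 fell with the inhibitor (-1.83 ± 0.48, edgeR adjusted p = 0.0326), the 1 call there among 5 tested epithelial markers. Of 6 endothelial markers Pecam1 and Cdh5 were under 1 CPM, with sums of 30.4 to 32.4, 17.2 to 26.2 and 26.0 to 29.6 CPM. Most of this was Eng, which averaged 24.7, 16.8 and 23.1 CPM in MG-CM, CM and CM-JAKi. Tek fell in CM (-1.67 ± 0.34, edgeR adjusted p = 0.0224) and rose with the inhibitor (1.39 ± 0.34, 0.0255). Of 5 plasmacytoid dendritic cell markers in the table Ccr9 and Pacsin1 were under 1 CPM, with sums of 33.0 to 44.9, 22.4 to 39.3 and 33.8 to 39.1 CPM. Most of this was Runx2, which averaged 27.6, 26.3 and 22.1 CPM in the same order. The leukocyte sum was the one marker sum higher in CM than in CM-JAKi without overlap, as the 10 genes were, and in CM and MG-CM it overlapped. Ptprc, the common leukocyte antigen, had 0 counts in MG-CM, 1 in CM and 3 in CM-JAKi over 3 libraries each.

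RefSeq start-site windows, 250 bases before to 50 bases after an annotated start on GRCm38.p6, were at hand for 6 of the 10 genes. They are shown because these genes moved together, and because interferon regulatory factors (IRFs) bind repeats of a short core. Capitals mark matches, on either strand, to the IRF core AANNGAAA or to the paired form GAAANNGAAA, and overlapping matches are merged. The windows are Ifi44 at chr3:151749861-151750160, Rsad2 at chr12:26456403-26456702, Bst2 at chr8:71537423-71537722 and Apol9a at chr15:77411031-77411330, all on the minus strand, and Cmpk2 at chr12:26468965-26469264 on the plus strand.
Ifi44: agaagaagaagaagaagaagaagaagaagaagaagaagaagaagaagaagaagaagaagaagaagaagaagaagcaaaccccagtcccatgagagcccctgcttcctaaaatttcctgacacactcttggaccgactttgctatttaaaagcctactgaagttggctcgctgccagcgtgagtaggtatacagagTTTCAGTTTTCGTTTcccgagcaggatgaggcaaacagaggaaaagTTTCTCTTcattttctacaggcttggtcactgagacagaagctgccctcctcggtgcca
Rsad2: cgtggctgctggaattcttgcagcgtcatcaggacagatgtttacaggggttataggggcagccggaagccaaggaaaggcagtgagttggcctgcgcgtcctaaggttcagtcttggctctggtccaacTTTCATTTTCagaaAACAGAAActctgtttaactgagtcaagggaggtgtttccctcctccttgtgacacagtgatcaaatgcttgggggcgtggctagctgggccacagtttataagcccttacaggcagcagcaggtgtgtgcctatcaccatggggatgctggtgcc
Bst2: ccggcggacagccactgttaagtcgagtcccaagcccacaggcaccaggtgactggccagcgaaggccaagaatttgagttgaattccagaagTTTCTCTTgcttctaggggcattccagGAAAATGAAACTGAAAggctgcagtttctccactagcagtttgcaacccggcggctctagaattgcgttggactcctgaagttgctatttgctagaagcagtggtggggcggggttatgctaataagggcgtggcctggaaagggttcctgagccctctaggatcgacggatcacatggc
Apol9a: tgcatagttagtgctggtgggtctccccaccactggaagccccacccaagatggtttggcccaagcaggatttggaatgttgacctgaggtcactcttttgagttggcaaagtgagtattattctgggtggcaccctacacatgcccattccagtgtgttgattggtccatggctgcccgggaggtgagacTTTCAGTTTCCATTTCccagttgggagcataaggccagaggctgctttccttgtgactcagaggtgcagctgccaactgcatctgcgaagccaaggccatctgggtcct
Cmpk2: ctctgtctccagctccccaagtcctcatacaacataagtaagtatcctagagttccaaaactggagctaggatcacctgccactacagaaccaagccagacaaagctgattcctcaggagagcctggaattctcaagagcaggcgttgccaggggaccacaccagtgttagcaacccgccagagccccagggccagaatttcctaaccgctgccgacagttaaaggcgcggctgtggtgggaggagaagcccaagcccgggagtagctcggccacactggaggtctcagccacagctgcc

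The IRF core was found in 5 of the 6 genes and the paired form in 4. Over all 27025 genes with a window the shares were 26.7% and 3.99%, and over 38 other interferon-induced genes with one they were 78.9% and 42.1%. Ifi44 had 3 core matches, from 55 to 41 and from 9 to 2 bases before the start, and no paired form. Rsad2 had 1 paired match that begins 120 bases before the start, with a separate core match from 106 bases. Bst2 had 2 overlapping paired matches beginning 130 and 124 bases before the start, another core match at 157, and the one match of the 6 genes to TTCNNNGAA, the form of site that STAT dimers bind, at 136. That form was in 9.55% of all genes. The Apol9a window held 2 overlapping paired matches beginning 59 bases before the start. Apol9b, at chr15:77728822-77729121 on the plus strand, shared an identical run of 278 bases with it, so these matches are one sequence in duplicate. The Cmpk2 window held none of these letters. Cmpk2 and Rsad2 are neighbouring coding genes in RefSeq. Windows for Ifi27l2a, Mx1, Mx2 and Rtp4 were not used here.

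**Figure D1:**
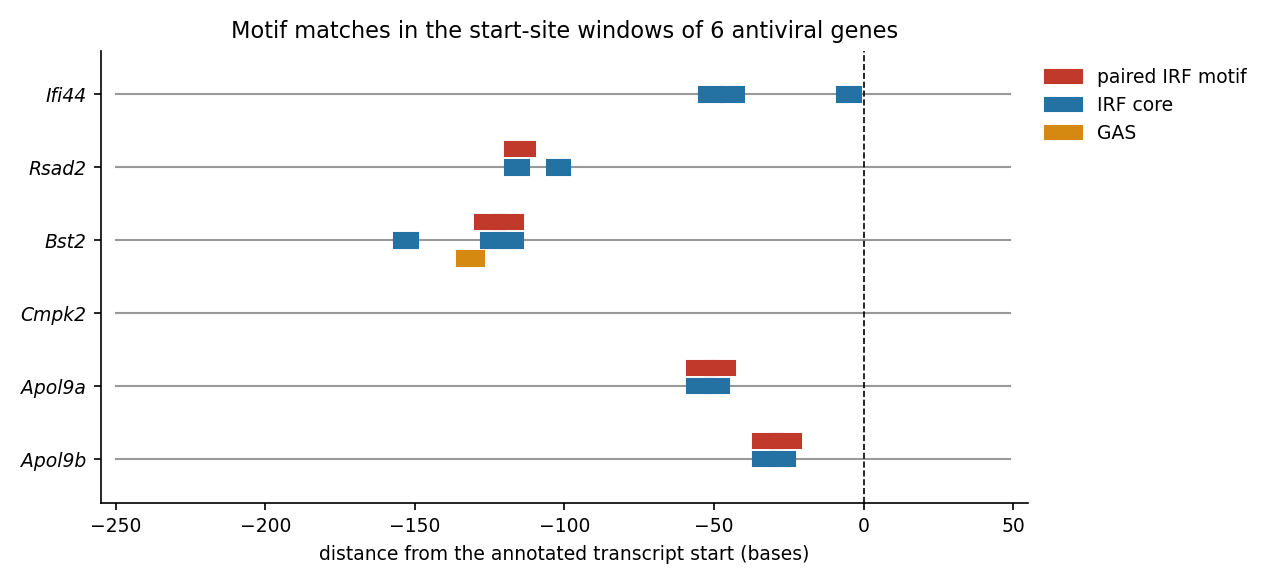
Motif matches in the RefSeq start-site windows of 6 antiviral genes, by distance from the annotated start in bases (horizontal axis, 0 is the start, dashed). Red boxes are the paired IRF motif, blue boxes the IRF core and orange the STAT-type site named GAS, and overlapping matches run together. Matches of 5 genes lie between 157 and 2 bases before the start, and Cmpk2 has none.

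In conditioned medium all 10 genes rose, and with the JAK inhibitor all 10 fell, to levels under those of every control library. CM against MG-CM compares stellate cells in tumour organoid medium with those in control medium, and any difference in serum between the media cannot be told apart from their other differences. CM-JAKi against CM compares cells in that medium with and without the JAK inhibitor, and its change holds any loss of the control level as well as of the rise. Relative to MG-CM the rise was 2.73-fold for Rtp4 to 9.39-fold for Ifi44. All 10 were called by the quasi-likelihood F-test of edgeR (adjusted p under 0.05, Benjamini-Hochberg over 13613 genes), where 4.85% of all genes rose and 5.39% fell. Their median log2 fold change was 1.83, against 0.01 over all genes. In bulk RNA, fewer cells that express a gene and less RNA per cell cannot be told apart. Levels below are CPM of replicates 1, 2 and 3 in that order, then the mean ± SD (n = 3), and changes are log2 fold changes ± SE.

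Relative to CM, all 10 genes fell with the inhibitor, by 17.6-fold for Rsad2 to 434-fold for Ifi44, where 8.93% of all genes fell and 10.1% rose. The median log2 fold change was -5.50, against 0.01 over all genes. Of the 13613 genes, 75 had a log2 change under -4, and the 10 were among them. Relative to MG-CM, 9 of the 10 fell in CM-JAKi, where 0.720% of all genes fell and 0.286% rose. Rsad2 was the gene not called, and at an unadjusted p under 0.05 all 10 were lower, as were 5.31% of all genes. The median log2 fold change was -3.74, against 0.01 over all genes. Each group enters 2 of the 3 comparisons, so these share samples. In each comparison the groups did not overlap for any of the 10 genes and all 3 same-numbered pairs moved alike. Over all genes 16.0% were higher without overlap in CM than in MG-CM, 18.3% lower in CM-JAKi than in CM and 8.24% lower in CM-JAKi than in MG-CM.

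**Figure D2:**
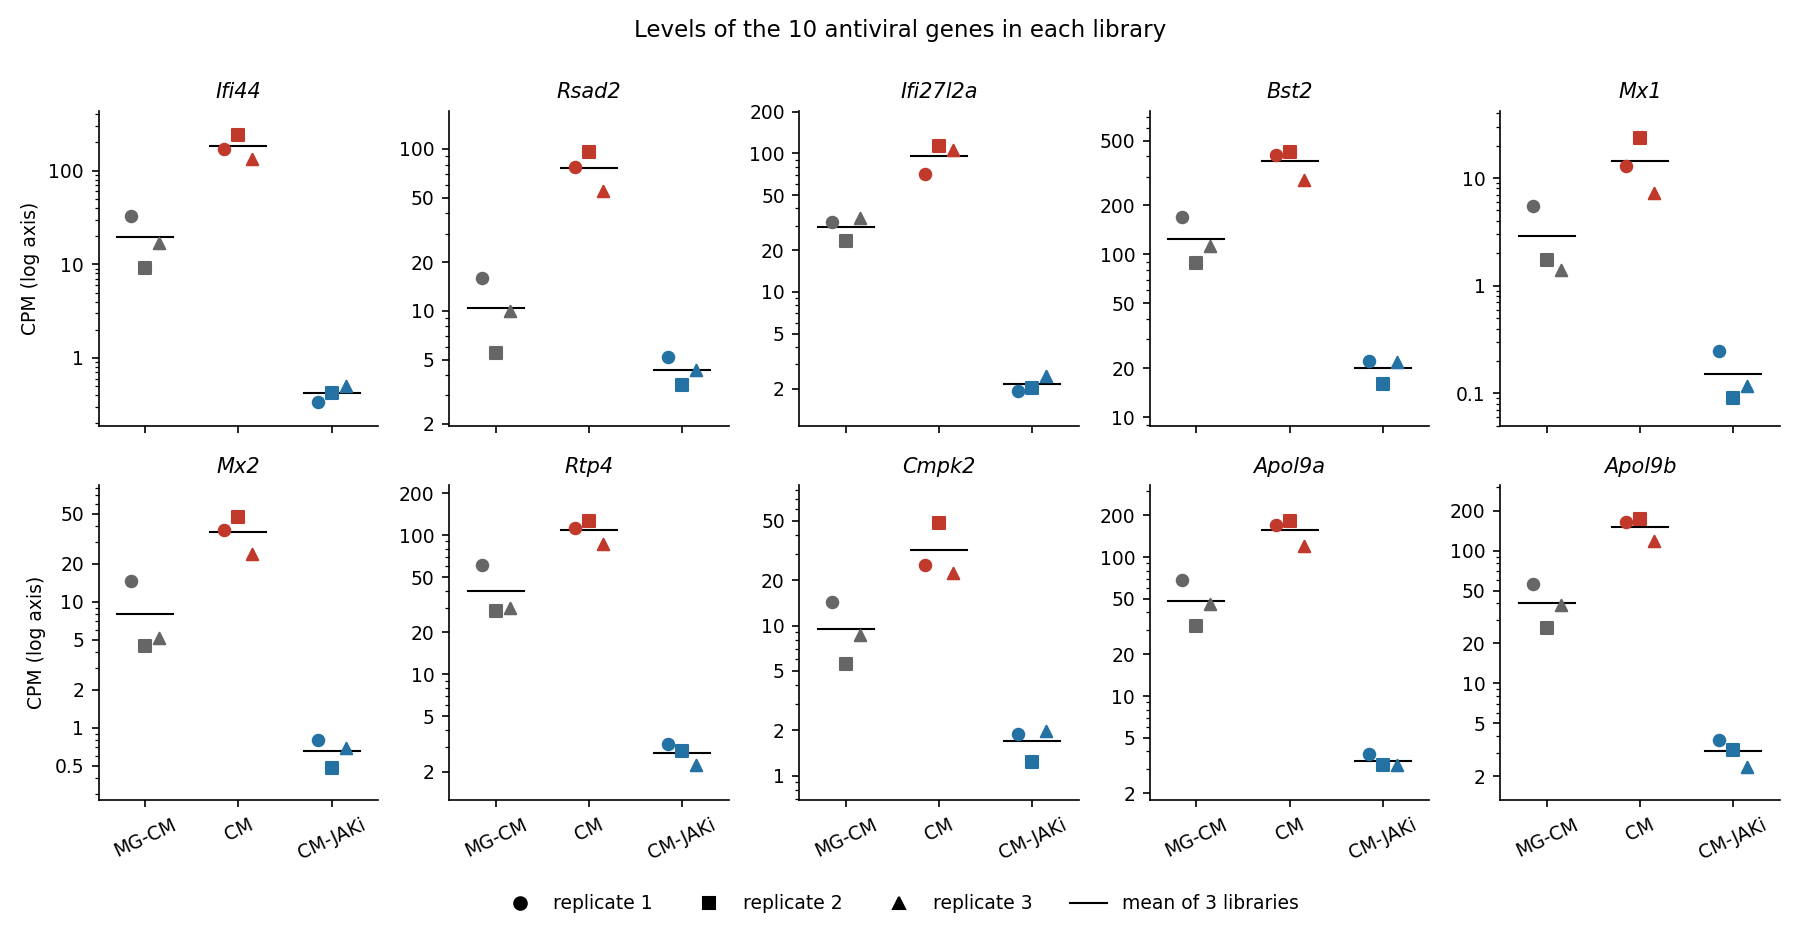
CPM on a log axis for each of the 10 genes in MG-CM (grey), CM (red) and CM-JAKi (blue). Each symbol is 1 library, with its shape giving the replicate, and the line is the mean of 3 libraries. In every panel the 3 CM libraries lie above the 3 MG-CM libraries and the 3 CM-JAKi libraries below them.

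Ifi44 encodes a cytoplasmic protein that interferon induces strongly. Its level was 32.4, 9.07 and 16.7 CPM in control medium (19.4 ± 11.9), 171, 243 and 132 in CM (182 ± 56.5) and 0.339, 0.419 and 0.503 with the inhibitor (0.420 ± 0.0821). The lowest CM library lay above the highest control, and the CM-JAKi values rest on 11, 14 and 13 counts. The rise in CM was 3.23 ± 0.43 (adjusted p = 0.00841), the largest fold of the 10 genes. Ifi44 fell by 8.76 ± 0.61 from CM to CM-JAKi (adjusted p = 1.50e-04), rank 3 from the bottom of all log2 changes in that comparison. Against MG-CM it fell by 5.53 ± 0.58 (adjusted p = 0.00430), so that 2.17% of the control level was left. All of its calls stood without any single library. The edgeR adjusted p of Ifi44 with replicate numbers as a block was 0.00430, 3.09e-04 and 0.00882 for these changes in that order. With the block the fall against MG-CM was lost without replicate 1 (0.0604) or 3 (0.131).

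Rsad2 encodes viperin, a radical SAM enzyme that converts CTP into a chain terminator of viral RNA synthesis. It read 15.9, 5.48 and 9.93 CPM in control medium (10.5 ± 5.25), 77.2, 95.9 and 54.7 in CM (75.9 ± 20.6) and 5.17, 3.50 and 4.29 with the inhibitor (4.32 ± 0.836). The lowest control library, replicate 2, was close to the highest library with the inhibitor, replicate 1. Rsad2 rose by 2.86 ± 0.37 in CM (adjusted p = 0.00791) and fell by 4.13 ± 0.40 with the inhibitor (adjusted p = 5.47e-04). Its change of -1.27 ± 0.37 against MG-CM missed the threshold (adjusted p = 0.207, 0.129 with replicate numbers as a block, and 0.0166 by the Wald test of DESeq2). With the block and without replicate 2 it was called (0.0265). Rsad2 with the inhibitor was 41.3% of its control level, and the other 9 genes were at 2.17% to 17.8%. Whether its change differs from theirs was not tested.

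Cmpk2, the neighbour of Rsad2, encodes a mitochondrial nucleotide kinase that phosphorylates cytidine and uridine nucleotides. Its levels were 14.3, 5.55 and 8.68 CPM in control medium (9.51 ± 4.44), 25.2, 47.9 and 22.3 in CM (31.8 ± 14.0) and 1.88, 1.23 and 1.97 with the inhibitor (1.69 ± 0.406). CM replicate 2 was the highest library, and CM replicates 1 and 3 were close to each other. Cmpk2 rose by 1.74 ± 0.39 (adjusted p = 0.0284), fell by 4.24 ± 0.45 with the inhibitor (adjusted p = 9.09e-04) and fell by 2.49 ± 0.43 against MG-CM (adjusted p = 0.0354). With replicate numbers as a block the edgeR adjusted p was 0.0278 for the rise and 0.0425 for the fall against MG-CM. With the block the rise was lost without replicate 1 (0.0595), 2 (0.0640) or 3 (0.104), and that fall without 1 (0.160) or 3 (0.253). In fits without the block, the rise lost its call without control replicate 2 (adjusted p = 0.102), control replicate 3 (0.0831) or CM replicate 2 (0.0659). It was also lost with MG-CM and CM fitted alone (0.0582). The fall against MG-CM lost it without control replicate 1 (0.0929) or 3 (0.0977), or CM-JAKi replicate 1 (0.0757), 2 (0.173) or 3 (0.132). Cmpk1, a cytosolic kinase of the same substrates, was at 51.4, 54.0 and 59.8 CPM on average in MG-CM, CM and CM-JAKi and was not called.

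Mx1 and Mx2 encode dynamin-like GTPases that trap viral nucleocapsids. C57BL/6 mice are known for a defective Mx1 allele, and the RNA of either gene says nothing of a working protein. Mx1, the least abundant of the 10 also per length, was at 5.49, 1.73 and 1.40 CPM in control medium (2.87 ± 2.27) and 12.9, 23.5 and 7.22 in CM (14.5 ± 8.29). In CM-JAKi it was at 0.246, 0.0898 and 0.116 CPM (0.151 ± 0.0838), on 8, 3 and 3 counts. These are 14 counts in all, with an exact Poisson 95% interval of 7.65 to 23.5 that covers counting error only. The groups did not overlap, though the highest control, replicate 1, was near the lowest CM library, replicate 3. Mx1 rose by 2.34 ± 0.60 (adjusted p = 0.0425), fell by 6.54 ± 0.79 with the inhibitor (0.00171) and fell by 4.20 ± 0.78 against MG-CM (0.0478), each by edgeR.

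The Mx1 calls against MG-CM were close to the threshold in the main edgeR fit, which has no block. With replicate numbers as a block the adjusted p was 0.0125 for the rise and 0.0238 for the fall. With the block the rise was lost without replicate 2 (0.0591) or 3 (0.0866), and the fall without replicate 3 (0.201). The losses that follow are from fits without the block. The rise lost its call without control replicate 2 (adjusted p = 0.157) or 3 (0.108), CM replicate 1 (0.0816) or 2 (0.108), or CM-JAKi replicate 2 (0.0643) or 3 (0.0624). It was also lost with no filter on low counts (0.0506) or with the 2 groups fitted alone (0.0775). The fall of Mx1 against MG-CM lost it without control replicate 1 (0.0896), 2 (0.0750) or 3 (0.0717), CM replicate 1 (0.0595), or CM-JAKi replicate 1 (0.0811), 2 (0.207) or 3 (0.198). That fall was also not called with library size scaling alone (0.0562), no filter (0.0557) or the 2 groups fitted alone (0.0531). Mx2 was at 14.6, 4.47 and 5.12 CPM in control medium (8.06 ± 5.68), 37.4, 46.8 and 24.0 in CM (36.1 ± 11.5) and 0.800, 0.479 and 0.696 with the inhibitor (0.658 ± 0.164). Its highest control was again replicate 1, below every CM library. Mx2 rose by 2.16 ± 0.45 (adjusted p = 0.0232), fell by 5.77 ± 0.56 with the inhibitor (6.00e-04) and fell by 3.61 ± 0.54 against MG-CM (0.0212). With the block the rise had 0.00773 and the fall against MG-CM 0.0132. Both were lost with the block and without replicate 3 (0.0585 and 0.141). The rise of Mx2 lost its call without control replicate 2 (0.0884) or 3 (0.0662) or CM replicate 1 (0.0569) or 2 (0.0567), or with the 2 groups fitted alone (0.0514), and the fall against MG-CM without CM-JAKi replicate 1 (0.0515), 2 (0.115) or 3 (0.0959). The longest annotated transcripts of Mx1 and Mx2 were 86.5% identical over 2325 aligned bases.

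Bst2 encodes tetherin, a membrane protein that holds budding virions on the cell surface. It was the most abundant of the 10, also per length, at 170, 89.0 and 113 CPM in control medium (124 ± 41.7), 410, 424 and 286 in CM (373 ± 75.8) and 22.2, 15.9 and 21.7 with the inhibitor (19.9 ± 3.48). Even the lowest CM library was above the highest control, and the inhibitor group lay below both. Bst2 rose by 1.59 ± 0.26 (adjusted p = 0.0114, and 0.00439 with replicate numbers as a block). In the fit without the block this call was lost without control replicate 2 (0.0525). Bst2 fell by 4.23 ± 0.29 with the inhibitor (1.50e-04) and fell by 2.64 ± 0.27 against MG-CM (0.00385), and 16.0% of its control level was left.

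Ifi27l2a encodes a small hydrophobic protein of mitochondrial and nuclear membranes that interferon induces. It was at 31.9, 23.1 and 33.9 CPM in control medium (29.6 ± 5.72), 70.4, 113 and 105 in CM (96.0 ± 22.6) and 1.94, 2.03 and 2.48 with the inhibitor (2.15 ± 0.286). Unlike the other genes, its highest control library was replicate 3 and its lowest CM library replicate 1. Ifi27l2a rose by 1.70 ± 0.20 (adjusted p = 0.00652), fell by 5.48 ± 0.25 with the inhibitor (6.23e-05, the smallest p of all genes) and fell by 3.79 ± 0.24 against MG-CM (4.82e-04). The edgeR adjusted p of Ifi27l2a with replicate numbers as a block was 0.00278, 1.45e-04 and 0.00120 in that order. Its relative Ifi27l1 went the other way in conditioned medium, and fell from 176 ± 1.17 to 132 ± 18.0 CPM (-0.41 ± 0.11, adjusted p = 0.0488). That call was lost without any of control replicates 1 (0.0954), 2 (0.141) and 3 (0.108), CM replicates 1 (0.100) and 2 (0.0970), and CM-JAKi replicates 2 (0.0681) and 3 (0.0730). Ifi27l1 fell further with the inhibitor, to 54.9 ± 5.04 CPM (-1.27 ± 0.11, adjusted p = 3.78e-04).

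Rtp4 encodes a chaperone that carries certain G protein-coupled receptors to the cell surface and is induced by interferon. Its levels were 60.7, 28.4 and 30.1 CPM in control medium (39.7 ± 18.1), 112, 127 and 86.6 in CM (108 ± 20.3) and 3.14, 2.84 and 2.24 with the inhibitor (2.74 ± 0.457). Control replicate 1 stood above the other controls and below every CM library. Rtp4 rose by 1.45 ± 0.29 (adjusted p = 0.0208), the smallest rise of the 10, and lost the call without control replicate 2 (0.0860) or 3 (0.0604) or CM replicate 1 (0.0516). With replicate numbers as a block the adjusted p of the rise was 0.00522, and 0.0516 with the block and without replicate 3. Rtp4 fell by 5.30 ± 0.35 with the inhibitor (1.50e-04) and fell by 3.85 ± 0.33 against MG-CM (0.00225). Rtp2 and Rtp3, of the same family, had at most 1 count in any library.

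Apol9a and Apol9b are near-identical members of the apolipoprotein L family. Their longest annotated transcripts were 96.7% identical over 1526 aligned bases, so the estimated counts may divide reads between them and the single values are uncertain. Apol9a was at 67.9, 31.9 and 46.0 CPM in control medium (48.6 ± 18.1), 169, 183 and 120 in CM (157 ± 33.0) and 3.82, 3.20 and 3.21 with the inhibitor (3.41 ± 0.353). Apol9b was at 56.0, 25.9 and 38.7 CPM in control medium (40.2 ± 15.1), 164, 173 and 118 in CM (152 ± 29.4) and 3.76, 3.14 and 2.36 with the inhibitor (3.09 ± 0.700). In MG-CM and CM both had the order of libraries seen in Bst2. Apol9a held 50.4% to 57.6% of their sum in each library. That sum was 124, 57.8 and 84.7 CPM in control medium, 332, 356 and 238 in CM and 7.57, 6.34 and 5.57 with the inhibitor. Apol9a rose by 1.69 ± 0.26 (adjusted p = 0.0103), fell by 5.52 ± 0.32 with the inhibitor (1.04e-04) and fell by 3.83 ± 0.30 against MG-CM (0.00151). For Apol9b these changes were 1.91 ± 0.28 (0.00990), -5.61 ± 0.34 (1.05e-04) and -3.69 ± 0.32 (0.00225), and no single library ended a call of either gene. The edgeR adjusted p with replicate numbers as a block was 0.00438, 1.55e-04 and 0.00167 for Apol9a in that order. For Apol9b it was 0.00313, 1.55e-04 and 0.00195.

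**Figure D3:**
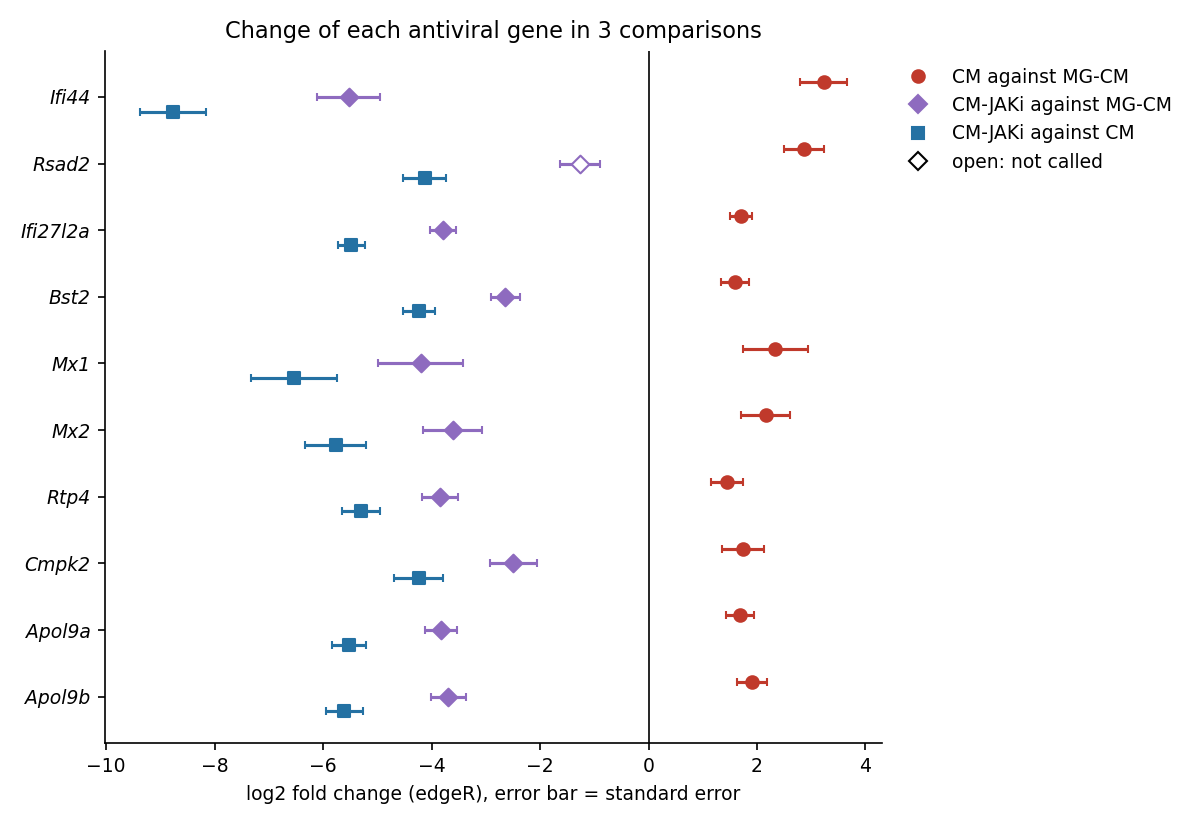
Log2 fold change of each gene (horizontal axis) in CM against MG-CM (red circles), CM-JAKi against MG-CM (purple diamonds) and CM-JAKi against CM (blue squares), with standard errors from edgeR. Filled symbols passed the adjusted p of 0.05, and the one open symbol is Rsad2 in CM-JAKi against MG-CM. Rises span 1.45 to 3.23 and changes from CM to CM-JAKi -8.76 to -4.13.

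**Figure D4:**
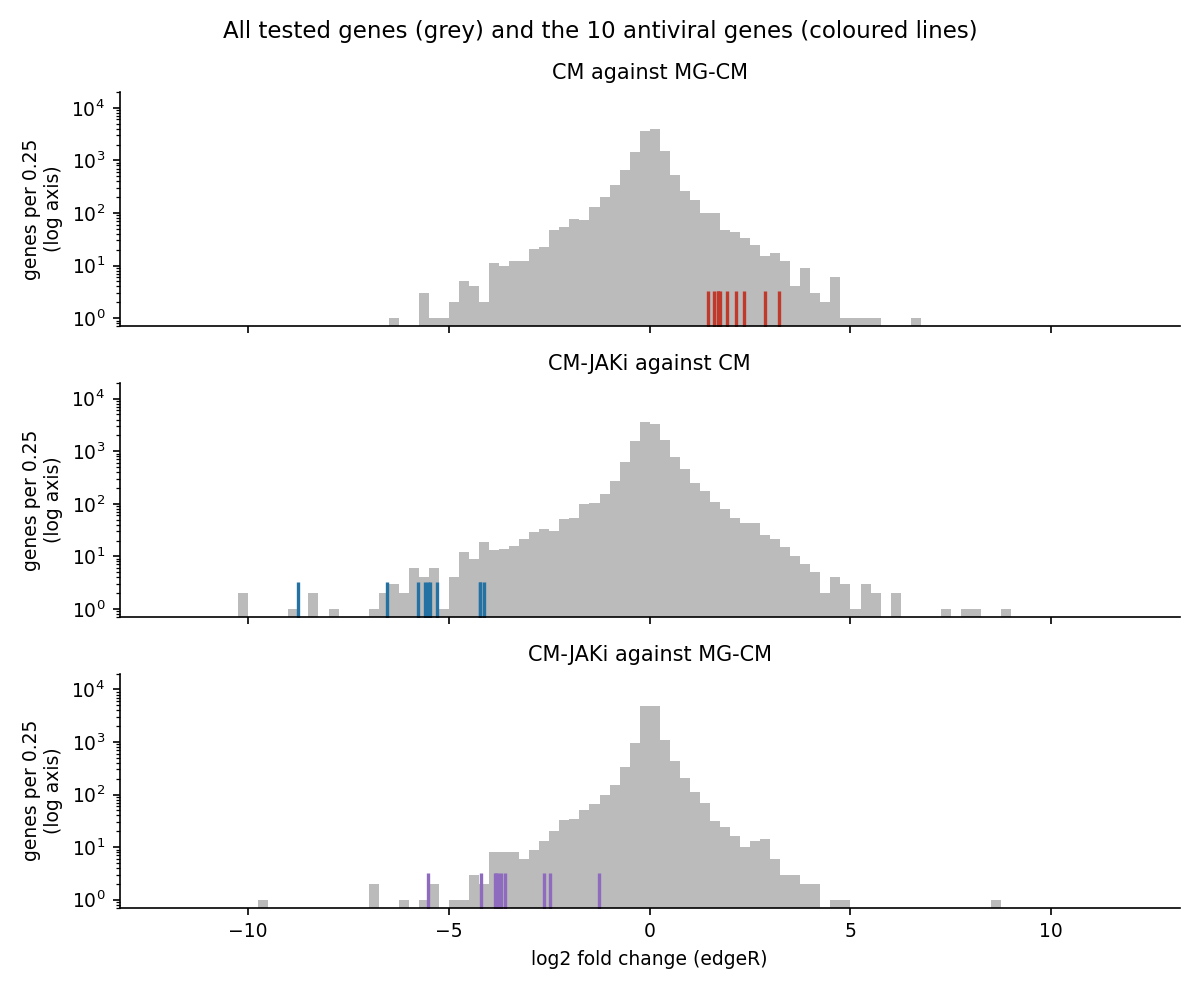
Number of genes per 0.25 of log2 fold change (log axis, grey) for all 13613 genes in the 3 comparisons, with a coloured line for each of the 10 antiviral genes. The lines lie to the right of the bulk in CM against MG-CM and to the left in both CM-JAKi comparisons.

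Levels of different genes can be set side by side only per length. Per kilobase of the longest annotated coding transcript, the order in MG-CM was Bst2 (157 CPM per kb), Ifi27l2a (63.9), Apol9a (31.8), Apol9b (25.6), Rtp4 (21.4), Ifi44 (6.67), Mx2 (3.33), Cmpk2 (2.97), Rsad2 (2.78) and Mx1 (0.848). Neighbours in this order overlapped between libraries except Bst2 with Ifi27l2a, Ifi27l2a with Apol9a, and Rtp4 with Ifi44. In CM Bst2 (471), Ifi27l2a (207), Apol9a (103) and Apol9b (96.6) had the highest means, and Ifi44 at 62.5 overlapped both Apol9b and Rtp4 at 58.1. Rsad2 (20.1), Mx2 (14.9) and Cmpk2 (9.94) followed, each overlapping the next, and Mx1 (4.28) lay below them. In CM-JAKi Ifi44 was at 0.144, lower than all but Mx1 at 0.0446. Rsad2 at 1.14 there overlapped Rtp4 at 1.47 and lay above Cmpk2 at 0.528 without overlap. The length of the transcripts these cells use was not measured.

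The size of the rise differed between replicate numbers in 1 pattern over the 10 genes. The log2 ratio of CM to MG-CM was largest in replicate 2 and smallest in replicate 1 for 10 of 10 genes. For Ifi44 it was 2.40, 4.75 and 2.98 in replicates 1, 2 and 3, and for Cmpk2 0.82, 3.11 and 1.36. Summed over the 10 genes the level was 469, 225 and 304 CPM in control medium, 1250, 1480 and 956 in CM and 43.3, 32.9 and 39.5 with the inhibitor. MG-CM replicate 1 was highest for 9 genes and replicate 2 lowest for 9, while CM replicate 2 was highest for 10 genes. Between replicate 1 and the others, line and medium source cannot be told apart in CM and CM-JAKi. Replicates 2 and 3 differ in source and culture within line PSC5. The MG-CM libraries had no organoid medium. In an interaction test added after the data were seen, PSC5 exceeded PSC4 in the rise by 0.55 to 2.06 on the log2 scale, with 1 PSC4 library per group, which is assumed to vary as the PSC5 libraries do. None of the 10 genes was called (edgeR adjusted p 0.252 to 0.583), and 31 of the 13613 genes were. At an unadjusted p under 0.05 there were 3, Ifi27l2a (0.0418), Mx2 (0.0342) and Rtp4 (0.0223), against 15.5% of all genes.

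Leaving out a whole replicate number bore on the counts of calls. Within PSC5 alone, replicates 2 and 3, the 10 genes rose in CM, where 6.15% of all genes rose. They fell with the inhibitor, where 10.4% of all genes fell, and 7 were called below MG-CM, where 1.83% fell. Without replicate 2 edgeR called 0 of 10 in CM against MG-CM, where 0.0440% of all genes rose, and 9 of the 10 were higher at an unadjusted p under 0.05, as were 7.0% of all genes. Without replicate 3 it again called 0, where 0.168% of all genes rose, and 10 were higher at that unadjusted p, as were 9.13% of all genes. Calls were thus few over the whole table in both fits, and a count of 0 is not particular to the 10 genes. With the replicate number as a block, where 11.6% of all genes rose in CM, all 10 were called. With the block the count was 9, 8 and 6 without replicate 1, 2 or 3, where 9.87%, 1.78% and 5.12% of all genes rose. Without 1 library the count was 5 to 10. The lowest were 5 with MG-CM replicate 2 left out, where 0.326% of all genes rose, and 6 with MG-CM replicate 3 left out, where 2.05% rose. In CM-JAKi against MG-CM 0 of 10 were called without replicate 3, and edgeR then called 0 of all 13683 genes tested. All 10 were lower at an unadjusted p under 0.05, as were 3.13% of all genes. With the block and without replicate 3 the count was also 0, where 0.110% of all genes fell, and 9 were lower at that unadjusted p, as were 5.58% of all genes. The 10 falls from CM to CM-JAKi were called in every alternative run.

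The other genes of the pathway were taken from a list of 30, of which 23 were in the table and 20 tested. In CM 4 of the 20 rose (median log2 change 0.23), and 0 fell, whether by edgeR, DESeq2 or an unadjusted p under 0.05. They were Usp18 (1.78 ± 0.26, adjusted p = 0.00990), which removes ISG15 and dampens the receptor, Irf7 (1.99 ± 0.33, 0.0130), a factor that drives interferon genes, Stat2 (1.16 ± 0.24, 0.0231) and Irf9 (0.75 ± 0.18, 0.0349). The count was 6 by DESeq2 and 9 with the block, and without 1 library it was 2 (CM replicate 1, CM replicate 2 or MG-CM replicate 3) or 1 (MG-CM replicate 2). Of all genes 4.85% rose in the main fit, 8.87% by DESeq2 and 11.6% with the block. Without those 4 libraries, in the order given, 2.24%, 3.55%, 2.05% and 0.326% of all genes rose. Usp18 kept its call without each library, and Irf7 lost it without MG-CM replicate 2 (0.0574). Stat2 lost it without CM replicate 1 (0.0554), CM replicate 2 (0.0567), MG-CM replicate 2 (0.0900) or MG-CM replicate 3 (0.0693). Irf9 lost it without those 4 (0.0958, 0.0860, 0.133 and 0.104 in that order) and without CM-JAKi replicate 2 (0.0613) or 3 (0.0515). With the inhibitor 9 fell and 1 rose (median -0.11), where 8.93% of all genes fell and 10.1% rose. Without CM-JAKi replicate 2 there were 6 calls, all of them falls, where 3.48% of all genes fell and 3.72% rose. The changes with the inhibitor were -5.40 ± 0.40 for Irf7, -4.54 ± 0.29 for Usp18, -2.81 ± 0.19 for Irf9 and -2.75 ± 0.26 for Stat2. Of the kinases, Jak2 fell by 1.45 ± 0.28 with the inhibitor (adjusted p = 0.0103) and Jak1 fell by 0.35 ± 0.09 (0.0287), both named after their values were seen. The call of Jak1 was lost without CM replicate 1 (0.0570), 2 (0.0640) or 3 (0.0599) or CM-JAKi replicate 2 (0.105) or 3 (0.0861), and no single library ended that of Jak2. The gene that rose was Irf8, at 0.206 ± 0.0379 CPM in CM and 0.838 ± 0.472 in CM-JAKi, named after its value was seen, and its call was lost without any one CM library or without CM-JAKi replicate 2 or 3 (adjusted p 0.0528 to 0.0816). Against MG-CM Irf9, Usp18, Irf7 and Stat2 fell (4 of 20, median -0.32), Stat2 not without CM-JAKi replicate 2 (0.119), CM-JAKi replicate 3 (0.118) or MG-CM replicate 3 (0.0592). With the block, where 2.40% of all genes fell and 1.85% rose, 7 fell and 2 rose.

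At the start of the pathway the ligand genes had few counts and the receptor genes did not pass the main test. Ifnb1, interferon beta, had 1, 0 and 2 counts in MG-CM, 8, 15 and 8 in CM and 1, 0 and 0 with the inhibitor. Ifna4 had no count in any MG-CM or CM-JAKi library and 8, 9 and 3 in CM. Every CM library thus held more counts of Ifnb1 than any other library, and both genes were under the filter and were not tested. Ifnar1 averaged 118 ± 8.83, 141 ± 19.3 and 141 ± 14.6 CPM in control medium, CM and CM-JAKi, and Ifnar2 47.5 ± 5.37, 64.1 ± 13.3 and 55.2 ± 7.82. Neither was called in CM against MG-CM (adjusted p = 0.199 and 0.134), and both were with the block (0.0280 and 0.0250).

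**Figure D5:**
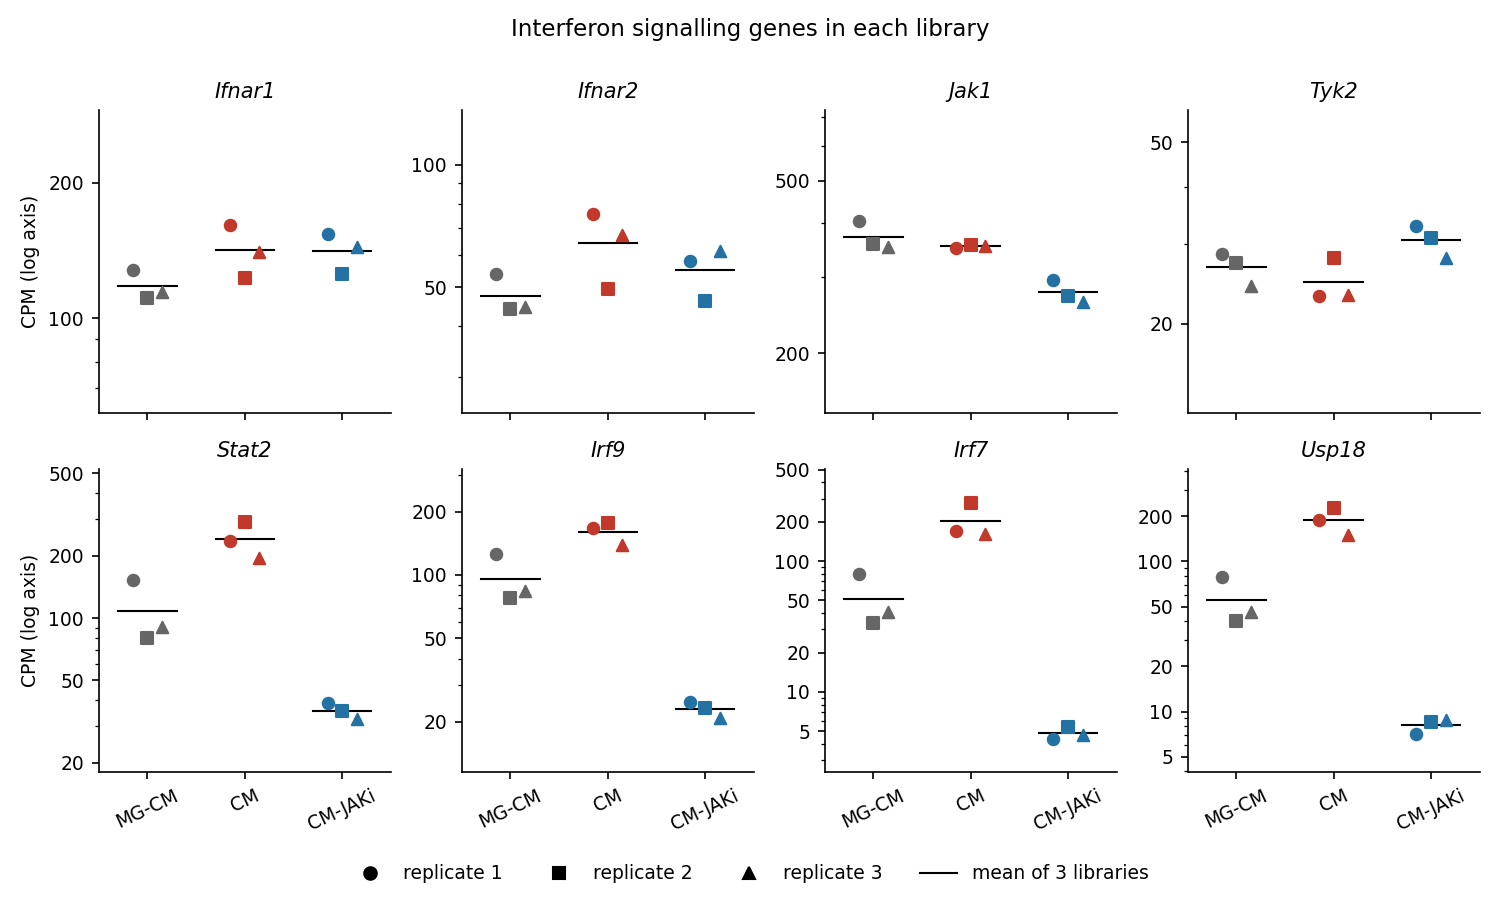
CPM on a log axis of 8 signalling genes in each library, with symbols and lines as in the plot of the antiviral genes. Jak1, Stat2, Irf9, Irf7 and Usp18 are lowest in the 3 CM-JAKi libraries without overlap, Jak1 by the smallest margin, while the groups overlap for Ifnar1, Ifnar2 and Tyk2.

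Other interferon-induced genes were counted on a list of 44, of which 42 were tested. In CM 35 rose, with a median log2 change of 1.22, and 0 fell, whether by edgeR, DESeq2 or an unadjusted p under 0.05. Examples are Oas3 (3.81 ± 0.49), Oas1a (2.47 ± 0.31), Lgals3bp (1.40 ± 0.15) and Ifitm3 (0.98 ± 0.12), called without each library in turn. With MG-CM replicate 2 left out the count was 8, with MG-CM replicate 3 left out 20, and with CM replicate 2 left out 22. Of all genes 0.326%, 2.05% and 3.55% rose in those fits, against 4.85% with all libraries. With the inhibitor 40 fell (median -2.90), where 8.93% of all genes fell. Against MG-CM 26 fell (median -1.70), or 4 without CM-JAKi replicate 2, 9 without CM-JAKi replicate 3 and 14 without MG-CM replicate 3. Of all genes 0.720% fell with all libraries, and 0.153%, 0.247% and 0.297% without these in turn. Relatives of the 10 genes by family numbered 24 on the list and 12 tested. In CM 2 fell, Dnm3 and Ifi27l1, where 5.39% of all genes fell. The call of Dnm3 was lost without any of the 9 libraries (adjusted p 0.0612 to 0.114). With the replicate number as a block 2 rose as well, where 11.6% of all genes rose. They were Apol6 (main change 0.95 ± 0.48, adjusted p = 0.233, and 0.0301 with the block) and Apol7a (0.84 ± 0.28, 0.0895, and 0.0426 with the block). With the inhibitor Ifi27l1, Apol6 (-2.61 ± 0.51) and Apol7a fell and Dnm3 (1.38 ± 0.23) and Dnm1 (0.73 ± 0.18) rose. Of all genes 8.93% fell and 10.1% rose there. Without CM replicate 1 or CM-JAKi replicate 2 the calls were 3 in all. In those fits 5.37% and 3.48% of all genes fell, and 5.61% and 3.72% rose. The call of Dnm1 was lost without CM replicate 1 (0.0743), CM-JAKi replicate 2 (0.0920) or CM replicate 3 (0.0660), and that of Apol7a without 7 of the 9 libraries (0.0585 to 0.118). The median of the relatives was 0.01 in CM and -0.02 with the inhibitor.

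Over the 9 libraries the log2 CPM of the 10 genes correlated pairwise at a Pearson r of 0.873 to 0.998 (median 0.985, 45 pairs). The difference between conditions is part of this, and with group means removed r was 0.073 to 0.979 (median 0.837). These libraries share lines and medium sources, and r is a description. The genes outside the 10 whose pattern was most like their mean were Adar (r = 0.999), Slfn8 (0.998), H2-Q7 (0.997), Usp18 (0.997) and Oasl2 (0.997). Adar averaged 117, 260 and 35.4 CPM and Slfn8 19.4, 79.1 and 1.32 CPM in MG-CM, CM and CM-JAKi.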

How the data were processed

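Gene values are estimated counts (expected counts of RSEM, in whole numbers) that the authors deposited unscaled. The unit was read from the values and from the tools named. Per the submitters' processing notes the tools were STAR (2.5.1b), DESeq2 and RSEM (1.2.29), with builds mm9 and NCBIM37, whose roles are not given. RSEM divides reads between near-identical genes.

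Counts were filtered (filterByExpr, minimum count 10, minimum total 15), scaled by TMM and tested in R 4.3.3 with edgeR 4.0.16 (quasi-likelihood F-test, robust, all 9 libraries, a term per group, Benjamini-Hochberg over 13613 genes). DESeq2 1.42.0 was an alternative. SE is the log2 change divided by the root of F. The test was tried on counts simulated without pairing by replicate number, and no result here rests on that trial. Same-numbered libraries share a line, and their deviations from group means correlated at 0.291 to 0.680 over 9 pairs. Between libraries of other number and group the highest correlation was 0.279. The numbers thus pair the samples, and the main fit leaves this pairing out. The replicate block is the alternative fit, which takes it in. Windows and gene neighbours are from RefSeq (GRCm38.p6), transcripts from GENCODE M21. Members, lists and tests were chosen with earlier results of these data known. Genes were named by list and smallest p, beside the members. Values of another gene on the signalling list are not reported here.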

Additional observations from a re-analysis of the deposited data

How the results depend on the processing

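The 10 falls with the inhibitor kept direction and call under every alternative (RLE or library size scaling, DESeq2, no filter, the block, a line term, 2 groups alone, no robust estimation, and each library or replicate number left out, and 9 of 9 with Apol9a and Apol9b summed). No gene reversed in any comparison. With the replicate number as a block, the counts of called genes were 10 in CM against MG-CM, 10 in CM-JAKi against CM and 9 in CM-JAKi against MG-CM, as without it. In CM against MG-CM the count ranged from 0 to 10 with libraries or replicate numbers left out, with 5 without MG-CM replicate 2, 6 without MG-CM replicate 3, and 0 without replicate 2 or without replicate 3. Of all genes 0.326%, 2.05%, 0.0440% and 0.168% rose in those fits, against 4.85% with all libraries. With the block and without replicate 3 it was 6, where 5.12% of all genes rose. In CM-JAKi against MG-CM it ranged from 0 to 9 by edgeR without the block, with libraries or replicate numbers left out. It was 0 without replicate 3, with or without the block, where 0.110% and 0% of all genes fell. By DESeq2 on all libraries it was 10, Rsad2 included, where 2.29% of all genes fell. Where the count was 0, 9 or 10 genes had an unadjusted p under 0.05. Fitting the 2 groups alone ended the call of the Mx1, Mx2 and Cmpk2 rises and of the Mx1 fall against MG-CM, no filter that of both Mx1 changes against MG-CM, and library size scaling that of the Mx1 fall. The fits with the block and a number left out, and the test of line, were chosen after seeing the data. Without TMM, all tested genes had a median shift of -0.07, 0.10 and 0.03 (log2) in the 3 comparisons, ordered as above, and the counts of genes that rose and fell were 495 and 887, 1853 and 865, and 35 and 80, against 660 and 734, 1369 and 1216, and 39 and 98. DESeq2 gave 1207 and 1309, 1816 and 1727, and 193 and 312, and the block 1577 and 1748, 2529 and 2126, and 252 and 327. Depth limits Mx1 in CM-JAKi, with 14 counts.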
